A study of Homo sapiens with 12 samples.

Results

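The 43 genes described here encode factors that start, extend, end and reset translation: the eIF1, eIF1A, eIF2, eIF2B, eIF3, eIF5, eIF5A, eIF5B and eIF6 proteins, the non-canonical initiator proteins eIF2A, eIF2D, DENR and MCTS1, the eEF1 complex, and the release and recycling factors eRF1, eRF3 and ABCE1. They were chosen by symbol from the 59385 gene names of the count table. The eIF4 genes and EEF2 are not among them. All 43 symbols had an entry, 42 passed the filter on low counts and were tested among 18166 genes, and EEF1G was not tested because it had 0 counts in every library.

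Both total and polysome-associated RNA were sequenced from HEK293T, a line derived from human embryonic kidney. Its 2 stable derivatives carried a Dox-inducible shRNA, which targeted the RNA-binding protein PRRC2B in shPRRC2B cells and no transcript in shCtrl cells, and both were taken after 36 h with Dox. Each line and fraction had 3 biological replicates, which gave 12 libraries, and the question was which mRNAs gain or lose translation when PRRC2B is depleted. Each line was grown from a single clone, so shPRRC2B against shCtrl is also 1 clone against another, and the replicates measure the spread within a clone.

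Translation starts when eIF2, bound to GTP and the initiator tRNA, joins the small ribosomal subunit together with eIF1, eIF1A, eIF3 and eIF5, and eIF5B then brings in the large subunit. eIF2B reloads eIF2 with GTP, eEF1A carries each later tRNA to the ribosome and is reloaded by the eEF1B subunits, and eIF5A helps the ribosome through slow peptide bonds. At a stop codon eRF1 and eRF3 free the protein, and ABCE1 splits the ribosome for reuse. Many mRNAs of this machinery begin with a C followed by a run of pyrimidines, the 5′ terminal oligopyrimidine (TOP) element, through which mTOR and LARP1 tune their translation.

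The libraries held 9855734 to 20837542 counts. PRRC2B itself was at 272, 313 and 258 normalized CPM (counts scaled to library size and TMM factor) in shCtrl total RNA and at 97.9, 103 and 100.5 in shPRRC2B total RNA. Its total RNA fell by 1.49 on the log2 scale (SE 0.17, edgeR quasi-likelihood test, Benjamini-Hochberg adjusted p = 4.25e-06), with no overlap between the lines. The line markers VIM, KRT8, KRT18, PAX2, NEFM and INA were present in all 12 libraries, while the blood, liver and red cell genes PTPRC, ALB, HBB and CD3E had at most 5 counts in any library. The line markers were not at equal levels: from shCtrl to shPRRC2B total RNA, mean normalized CPM went from 90.1 to 20.6 for KRT8, from 286 to 96.5 for NEFM and from 122 to 237 for VIM (n = 3 each), and the part of this difference between the clones in the values below was not tested. All adjusted p-values given are of that edgeR test over the 18166 genes. Calls required an adjusted p below 0.05 together with an absolute log2 change of more than 0.5. Values are relative to the other mRNAs of a library, so a lower yield of polysomes in all mRNAs alike, from fewer cells or from less RNA per cell, would not show.

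Some members could be counted only in part. In the GENCODE 44 annotation 99.7% of the exon bases of EEF1G, the eEF1B gamma subunit, are shared with a second gene on the same strand, and pairs that fit more than 1 gene were not counted. EEF1D, the delta subunit, had only 7 to 494 counts per library, and 34.0% of its exon bases lie in other genes on the opposite strand. For EIF3C, 15.2% of the counts of the gene and its near-identical copy EIF3CL lay on the copy, and 41.1% of the exon bases of EIF3L are shared with a gene on its own strand. Other members overlap too, among them EEF1E1 (18.8%), EIF6 (17.3%) and EEF1B2 (16.4%) with genes on the same strand. For EIF2B2, 23.6% of the exon bases lie in genes on the opposite strand. The values of all these genes are therefore uncertain, and the part of the overlaps in them was not tested.

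In shCtrl cells the members spanned a wide range. Per kb of canonical transcript, EEF1A1, the tRNA carrier of elongation, led in shCtrl total RNA with 1446 CPM per kb, followed by EIF5A with 361 and EEF1B2 with 347. The eIF3 subunits EIF3I, EIF3E, EIF3D and EIF3K came next with EIF1, between 125 and 164 CPM per kb. EIF5A2 and GSPT2, the minor paralogs of EIF5A and GSPT1, lay near the bottom with 1.13 and 2.91 CPM per kb.

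Most member mRNAs were richer in polysome RNA than in total RNA. The log2 polysome-to-total ratio in shCtrl cells had a median of 1.11 over the 42 members, against -0.22 over all genes tested. It was higher in polysome RNA for 27 members and lower for 6, where 32.5% of all genes were higher and 39.8% lower. The 6 lower members were EIF3A, EIF3B, EIF3C, EIF5B, GSPT1 and ABCE1. In shPRRC2B cells 23 members were higher and 11 lower, against 36.6% and 42.3% of all genes. The zero of this ratio is set by the scaling between fractions. Scaled by total counts, the median of all genes moved by -0.996 in shCtrl cells, and 15 members were higher and 14 lower (17.7% and 58.8% of all genes). In shPRRC2B cells 14 were then higher and 19 lower, against 23.6% and 56.2% of all genes.

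The order of the members was steep. EIF1, which guards start codon choice, stood highest at a log2 ratio of 3.63 in shCtrl cells, and EIF3A, the largest eIF3 subunit and a scaffold of the complex, stood lowest at -3.21. Subunits of 1 complex were thus far apart: in eIF3 the ratio ran from -3.21 for EIF3A through -1.37 for EIF3B to 2.52 for EIF3F, and 10 of its 13 subunits were called higher and 3 lower.

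**Figure D1:**
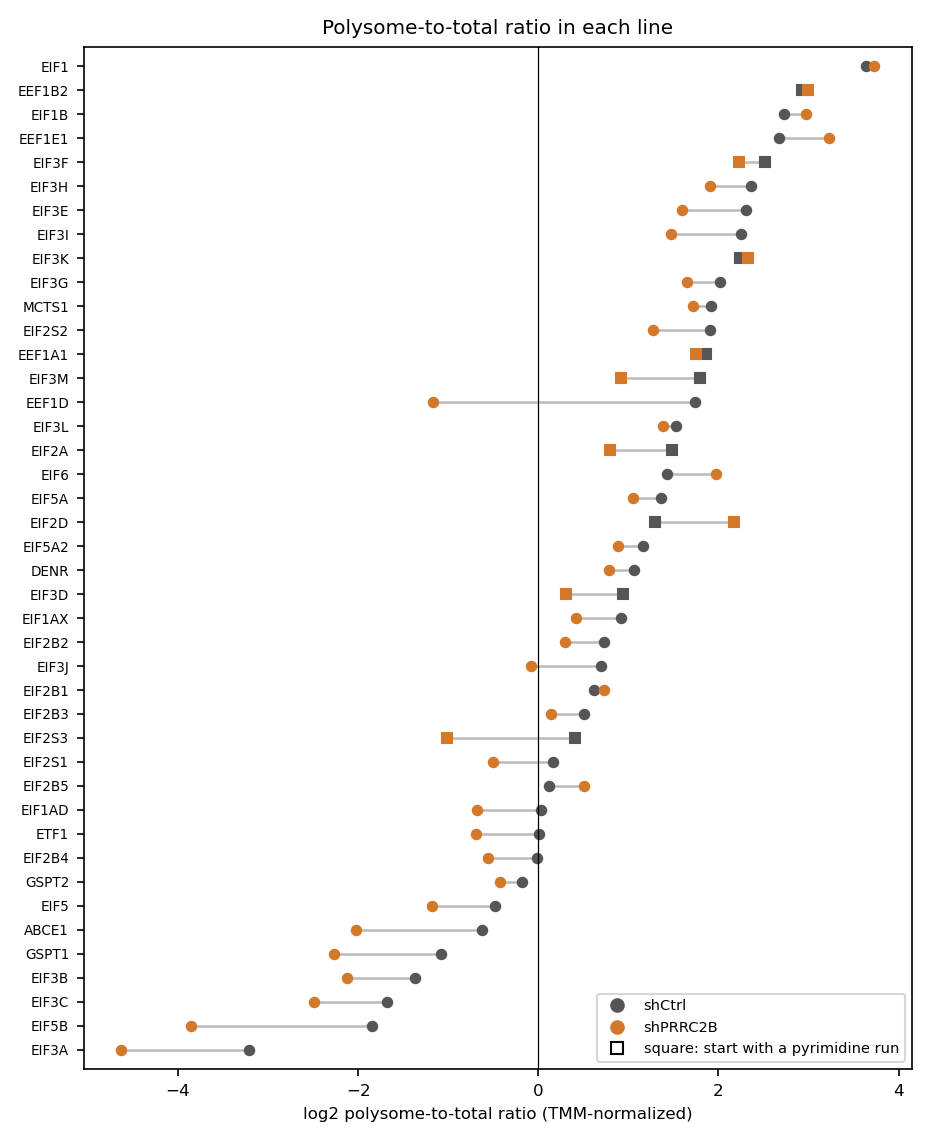
The log2 polysome-to-total ratio (horizontal axis) of the 42 members tested in shCtrl (grey) and shPRRC2B (orange) cells, in order of the shCtrl ratio, with a grey line joining the lines of cells and squares for members whose annotated start has a pyrimidine run. The ratios in shCtrl cells run from -3.21 for EIF3A to 3.63 for EIF1, and the 9 squares all lie above 0 in shCtrl cells. Members for which no start was used, such as EIF3E and EIF3H, are drawn as circles.

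The first transcribed bases are shown because a TOP run is read from them. RefSeq starts on GRCh38.p14 were used for 36 of the 43 members. No start was used for EIF2S2, EIF3A, EIF3G and EIF3L, or for the classical TOP members EIF3E, EIF3H and EEF1D. The first bases of these members were therefore not examined. A run was defined as a C at the annotated start followed by C or T up to at least 5 bases, on the strand of the gene, and for the 7 members with more than 1 listed start the start with the longest run was taken. It was present in 9 members, and in 4.07% of the 35116 starts listed for all genes (5.14% of 27305 genes). Because some members were left out, the count of 9 cannot be compared directly with these shares of all genes. Each sequence printed holds 10 bases before and 18 from the start, 5′ to 3′, with the run in capitals.
EEF1B2, chr2:206159885-206159912, plus strand: ctcttcgggtCCTTTTTCCTCTCTTCag
EIF3F, chr11:7987327-7987354, plus strand: cttccgcctcCTTCTTTCTCgacaagat
EIF3K, chr19:38619178-38619205, plus strand: tttccaccacCTCTTCCTgttcccgtcc
EEF1A1, chr6:73521015-73521042, minus strand: cgtgaacgttCTTTTTCgcaacgggttt
EIF3M, chr11:32583821-32583848, plus strand: gcccagttccCTTTTCCggtcggcgtgg
EIF2A, chr3:150546777-150546804, plus strand: cgagcggtttCTCTTTCCgggacaacat
EIF2D, chr1:206612448-206612475, minus strand: ccagccgggcCCTTTTCgcggccgggcc
EIF3D, chr22:36529149-36529176, minus strand: cgcatgtttcCTCTTTTCCTggtttctc
EIF2S3, chrX:24054946-24054973, plus strand: gatttccttcCTCTTTTggcaacatggc

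Of the 5 called members with the largest TE decrease, EIF2S3 is among the 9, EIF3A was not matched, and the annotated starts of EIF5B, GSPT1 and ABCE1 had no such run in this window.
EIF5B, chr2:99337379-99337406, plus strand: ctgagaactcacaccatatgtgtcctgt
GSPT1, chr16:11915939-11915966, minus strand: gaggagatccgctcacacacacgaggag
ABCE1, chr4:145098301-145098328, plus strand: gcggctgggcaccgccattttggccggt

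The 9 members with a run had log2 polysome-to-total ratios of 0.40 to 2.92 in shCtrl cells, with a median of 1.80. The other 26 matched and tested members had a median of 0.56, and 18 of them lay above 0. By TE change, 1 of the 9 was TE-up and 3 were TE-down, with a median log2 TE change of -0.29, and among the 26 there were 9 TE-down members and a median of -0.47. Over all genes 16.4% were TE-down and 10.7% TE-up. No test was made between the 9 and the 26. Neither set holds the classical TOP members EIF3E, EIF3H and EEF1D, whose starts were not used, so the medians do not cover them. The runs are matches of letters, not mapped start sites.

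TE, the polysome-to-total ratio, was called lower in shPRRC2B cells for part of the members. Of the 42 members, 15 were TE-down and 1, EIF2D, was TE-up, where 16.4% of all genes tested were TE-down and 10.7% TE-up. The share of TE-down members was 35.7%. The median log2 TE change was -0.49 over the members and -0.03 over all genes, and 33 of the 42 members lay below 0. A larger share of abundant genes was TE-down: among the 10051 genes that averaged 10 CPM or more, a limit chosen after the values were seen, 25.9% were TE-down and 12.4% TE-up, and their median TE change was -0.17.

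**Figure D2:**
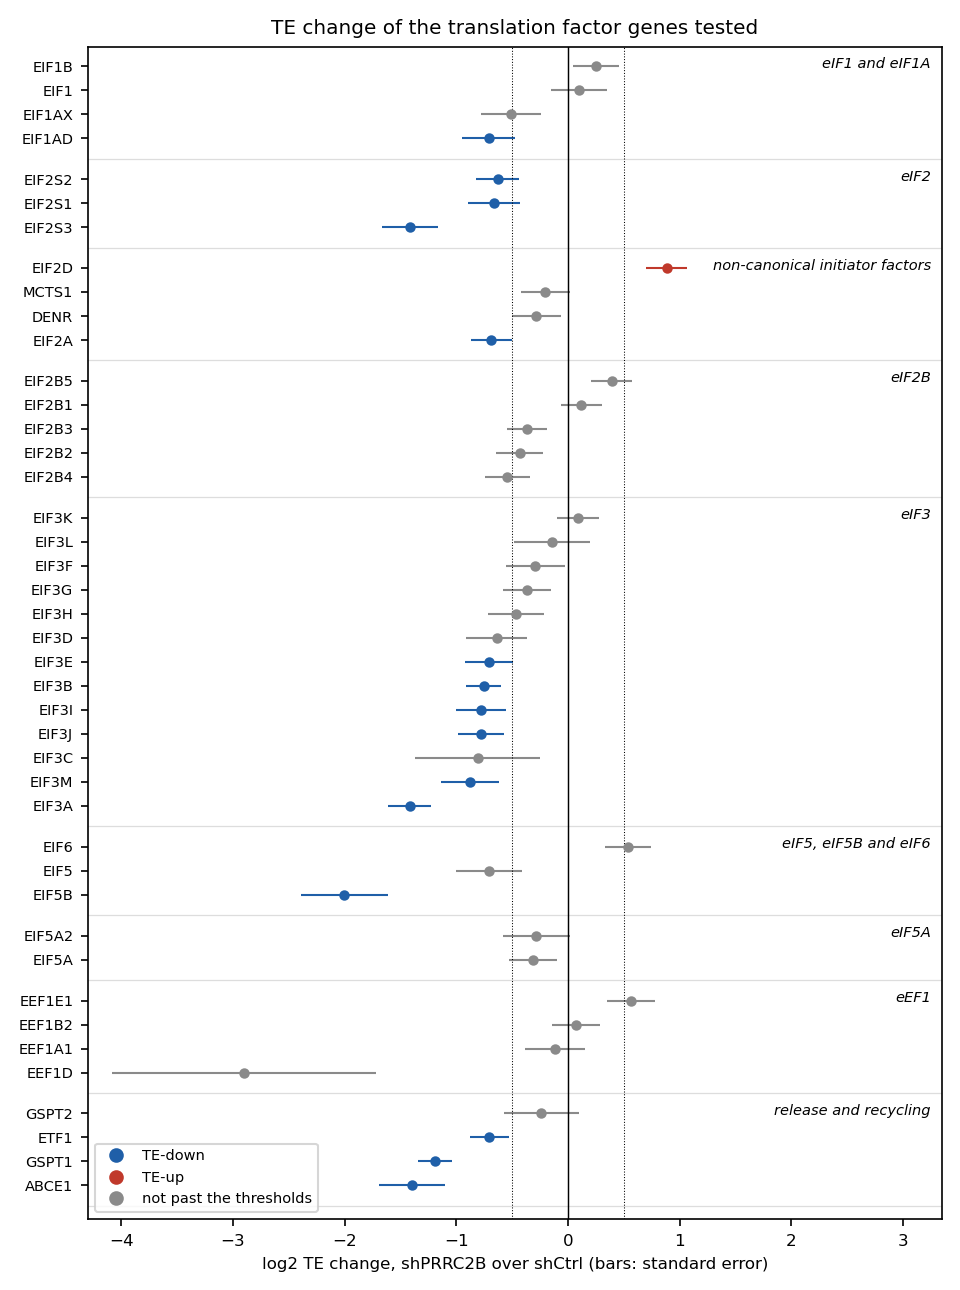
The log2 TE change between shPRRC2B and shCtrl cells (horizontal axis, bars are standard errors of the edgeR fit) of the 42 members tested, grouped by complex. TE-down members are in blue, TE-up in red and members not called in grey, with dotted lines at -0.5 and 0.5. EIF5B at -2.00 is the lowest called member, and EIF2D at 0.88 is the only one called above 0.

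The 5 largest TE decreases among called members belonged to EIF5B, EIF3A, EIF2S3, ABCE1 and GSPT1, factors of subunit joining, eIF3 assembly, initiator tRNA delivery, ribosome recycling and release. Their TE in shPRRC2B cells was 0.249 to 0.438 times that in shCtrl cells. In 3 of them, EIF5B, ABCE1 and GSPT1, total RNA rose while polysome RNA fell, and in EIF3A and EIF2S3 polysome RNA fell with total RNA past no threshold.

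EIF5B, the GTPase that joins the ribosomal subunits, was at 122, 123 and 155 normalized CPM in shCtrl total RNA and at 223, 249 and 222 in shPRRC2B total RNA. In polysome RNA it was at 38.7, 32.9 and 39.0 in shCtrl cells and at 25.9, 15.5 and 6.37 in shPRRC2B cells. The lines did not overlap in either fraction and moved in opposite directions, and the third shPRRC2B polysome library was the lowest. The log2 change was 0.80 in total RNA (SE 0.26, edgeR adjusted p = 0.0245) and -1.21 in polysome RNA (SE 0.29, edgeR adjusted p = 0.00261), and TE fell by 2.00 on the log2 scale (SE 0.39, edgeR adjusted p = 0.00121). Without the third shPRRC2B polysome library the TE change was -1.66, and without the first it was -2.62, both called. Under total count scaling the total RNA change of EIF5B was 0.72 and no longer past the threshold.

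In eIF2, the carrier of the initiator tRNA, all 3 subunits were TE-down, where 16.4% of all genes and 25.9% of those averaging 10 CPM or more were. The calls of EIF2S1 and EIF2S2 did not hold in every setting, as given below. EIF2S3, the GTP-binding gamma subunit, was at 378, 385 and 351 normalized CPM in shCtrl total RNA and at 421, 432 and 422 in shPRRC2B total RNA. Its polysome RNA was at 383, 450.3 and 641 in shCtrl cells and at 159, 253 and 221 in shPRRC2B cells. The polysome libraries were lower in every shPRRC2B replicate, by far more than total RNA was higher. TE of EIF2S3 fell by 1.41 on the log2 scale (SE 0.25, edgeR adjusted p = 6.96e-04), polysome RNA fell by 1.22 (SE 0.18, edgeR adjusted p = 4.27e-05), and total RNA was past no threshold (log2 change 0.19).

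EIF2S2, the beta subunit, whose mRNA is on the study's list of PRRC2B-bound mRNAs, was at 130.5, 140.0 and 142 normalized CPM in shCtrl total RNA and at 157, 150.1 and 154 in shPRRC2B total RNA. In polysome RNA it was at 422, 594 and 529 in shCtrl cells and at 325, 414 and 378 in shPRRC2B cells. The lines separated in both fractions, with total RNA higher and polysome RNA lower, but neither passed the thresholds by itself. The TE change of EIF2S2 was -0.63 (SE 0.19, edgeR adjusted p = 0.0217), and it was not called without the first shCtrl or the first shPRRC2B total library. EIF2S1, the alpha subunit that stress kinases phosphorylate, had a TE change of -0.66 (SE 0.23, edgeR adjusted p = 0.0439) with total RNA higher by 0.52 and polysome RNA at -0.14. The call for EIF2S1 was the least stable: it was lost under 6 alternatives and without any 1 of 10 libraries, with TE changes of -0.93 to -0.44 throughout.

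eIF3, the multisubunit platform that binds the small ribosomal subunit and eIF4G, had 6 TE-down subunits of 13 (EIF3A, EIF3B, EIF3E, EIF3I, EIF3J and EIF3M) and none TE-up. Over all genes 16.4% were TE-down and 10.7% TE-up, and 25.9% of those averaging 10 CPM or more were TE-down. The median TE change of the 13 was -0.71, against -0.03 over all genes, and 12 lay below 0. Total RNA passed the thresholds for none of the 13, where 14.9% of all genes rose and 14.1% fell. Polysome RNA fell for 6 (EIF3A, EIF3B, EIF3D, EIF3E, EIF3I and EIF3M), against 21.4% of all genes. The 7 subunits not called for TE ran from -0.81 for EIF3C, with an SE of 0.56, to 0.09 for EIF3K. The value of EIF3C was -0.21 without the third shPRRC2B total library and -0.41 with the counts of its copy added.

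EIF3A was at 395, 422 and 412 normalized CPM in shCtrl total RNA and at 476, 486 and 456 in shPRRC2B total RNA. In polysome RNA it was at 46.6, 36 and 50.1 in shCtrl cells and at 18.8, 21.5 and 17.0 in shPRRC2B cells. Total RNA was thus higher and polysome RNA lower in every shPRRC2B library. TE of EIF3A fell by 1.42 on the log2 scale (SE 0.19, edgeR adjusted p = 7.81e-05), and polysome RNA fell by 1.21 (SE 0.14). With the trend on transcript length removed from each library the TE change of EIF3A was -0.91, still called.

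EIF3B, a core subunit with an RNA recognition motif and another PRRC2B-bound mRNA, was at 239, 256 and 229 normalized CPM in shCtrl total RNA and at 287, 282 and 273 in shPRRC2B total RNA. Its polysome RNA was at 93.2, 96.6 and 90.1 in shCtrl cells and at 61.7, 69.8 and 61.6 in shPRRC2B cells. The replicates lay close together, with the lines apart in both fractions. TE of EIF3B fell by 0.75 on the log2 scale (SE 0.16, edgeR adjusted p = 0.00195) and polysome RNA fell by 0.54 (SE 0.11, edgeR adjusted p = 9.00e-04).

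EIF3E, a PCI-domain subunit that is both a PRRC2B-bound mRNA and a classical TOP mRNA, was at 271, 254 and 282 normalized CPM in shCtrl total RNA and at 286, 313 and 299 in shPRRC2B total RNA. Its polysome RNA was at 1081, 1312 and 1585 in shCtrl cells and at 742, 998 and 976 in shPRRC2B cells. The polysome libraries did not overlap, although the lowest shCtrl library was near the highest shPRRC2B libraries. TE of EIF3E fell by 0.71 on the log2 scale (SE 0.21, edgeR adjusted p = 0.0213), a call lost without the second shCtrl or the second shPRRC2B total library.

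EIF3M, another PCI-domain subunit, was at 128, 119 and 127 normalized CPM in shCtrl total RNA and at 141, 155 and 156 in shPRRC2B total RNA. Its polysome RNA was at 299, 425 and 580 in shCtrl cells and at 239, 336 and 282 in shPRRC2B cells. Here the polysome libraries overlapped, because the first shCtrl polysome library was low. TE of EIF3M fell by 0.88 on the log2 scale (SE 0.26, edgeR adjusted p = 0.0185), and the change was -0.53 and not called once the trend on transcript length was removed.

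EIF3I, a WD-repeat subunit bound to EIF3B, was at 228, 248 and 222 normalized CPM in shCtrl total RNA and at 213, 216 and 220.0 in shPRRC2B total RNA. Polysome RNA of EIF3I was at 775, 1299 and 1249 in shCtrl cells and at 583, 646 and 576 in shPRRC2B cells. Total RNA was slightly lower (log2 change -0.10) and polysome RNA much lower in every shPRRC2B library. TE of EIF3I fell by 0.78 on the log2 scale (SE 0.23, edgeR adjusted p = 0.0168), and with the length trend removed the change was larger, -1.25.

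EIF3J, a loosely bound subunit at the mRNA channel, was at 44, 44.5 and 51.5 normalized CPM in shCtrl total RNA and at 64.6, 60.2 and 59.5 in shPRRC2B total RNA. Polysome RNA of EIF3J was at 73.7, 82.2 and 71.2 in shCtrl cells and at 69.0, 62.0 and 43.3 in shPRRC2B cells. Each fraction separated the lines, total RNA upward and polysome RNA downward. Neither reached a log2 change of 0.5 alone (0.40 and -0.38), and the TE change was -0.78 (SE 0.21, edgeR adjusted p = 0.0110).

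The classical TOP subunits EIF3F and EIF3H differed less. EIF3F was at 142, 163 and 141 normalized CPM in shCtrl total RNA and at 149.8, 149 and 142 in shPRRC2B total RNA. Polysome RNA of EIF3F was at 667, 786 and 1109 in shCtrl cells and at 496, 795 and 771 in shPRRC2B cells. The lines overlapped in both fractions, and the TE change was -0.29 (SE 0.26, edgeR adjusted p = 0.437). EIF3H was at 127, 134 and 127 in shCtrl total RNA and at 129.9, 134 and 135 in shPRRC2B total RNA. Polysome RNA of EIF3H was at 545, 617 and 838 in shCtrl cells and at 353, 595 and 547 in shPRRC2B cells. Its lines overlapped as well, with a TE change of -0.46 (SE 0.25, edgeR adjusted p = 0.183).

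The first shCtrl polysome library bore on many of these values. It was the lowest of the 3 shCtrl polysome libraries for 27 members, among them 10 of the 13 eIF3 subunits. The share of all genes lowest in it was not counted, so whether these counts are particular to the members cannot be told. Over all genes with enough counts it stood further from replicates 2 and 3 than those did from each other (chi-square per degree of freedom 53.72 and 75.18, against 22.29). Without this first library, 22 members were TE-down in place of 15. Without any 1 of the other libraries the number lay between 12 and 18. The share of all genes TE-down in these fits is not given, so the shift cannot be read as particular to the members.

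eIF2B, the exchange factor that reloads eIF2, had no TE-called subunit of 5, with TE changes of -0.54 for EIF2B4 to 0.39 for EIF2B5. Of all genes 16.4% were TE-down and 10.7% TE-up. EIF2B5, the catalytic epsilon subunit and a PRRC2B-bound mRNA, was at 37.5, 34.8 and 32.1 normalized CPM in shCtrl total RNA and at 38.4, 39.1 and 36.2 in shPRRC2B total RNA. Polysome RNA of EIF2B5 was at 42.8, 38.2 and 32.2 in shCtrl cells and at 53.6, 57.6 and 50.5 in shPRRC2B cells. Total RNA overlapped and polysome RNA was higher in every shPRRC2B library. Polysome RNA of EIF2B5 rose by 0.51 on the log2 scale (SE 0.13, edgeR adjusted p = 0.00430), a value so near the threshold that scaling by total counts or by the RLE method put it at 0.49 or 0.50 and ended the call. It was also not called without replicate 2 or 3 of the shCtrl polysome libraries or without any 1 shPRRC2B polysome library. EIF2B4, the delta subunit, was higher in total RNA by 0.70 (SE 0.14, edgeR adjusted p = 0.00102). The TE adjusted p was 0.054 for EIF2B4 and 0.126 for EIF2B5. Some other settings did call eIF2B subunits TE-down. EIF2B4 was called with DESeq2 (-0.56) and with the length trend removed (-0.94), and EIF2B3 with that trend removed (-0.68).

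Of the 4 PRRC2B-bound mRNAs among the members, a list the study took from PAR-CLIP, 3 were TE-down (EIF2S2, EIF3B and EIF3E) and EIF2B5 was not called, where 16.4% of all genes and 25.9% of those averaging 10 CPM or more were TE-down. As given above, the calls of EIF2S2 and EIF3E were each lost without either of 2 libraries.

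EIF2D, which can place an initiator tRNA without eIF2 and also acts after termination, was the only TE-up member. It was at 85.4, 84.7 and 76.4 normalized CPM in shCtrl total RNA and at 55.8, 60.3 and 61.6 in shPRRC2B total RNA. Its polysome RNA was at 165, 201 and 239 in shCtrl cells and at 261, 272 and 271 in shPRRC2B cells. Total RNA was lower and polysome RNA higher in every shPRRC2B library, the reverse of EIF5B. TE of EIF2D rose by 0.88 on the log2 scale (SE 0.18, edgeR adjusted p = 0.00206), a 1.84-fold change, with total RNA at -0.47 and polysome RNA at 0.41, neither of which passed the thresholds. The related proteins DENR and MCTS1, which together resemble eIF2D, had TE changes of -0.28 and -0.20, past no threshold. EIF2A, an initiator-tRNA binding protein unrelated to eIF2, was TE-down at -0.69 (SE 0.18, edgeR adjusted p = 0.00986) with polysome RNA at -0.80. The change of EIF2A was -0.50 and not called with the length trend removed.

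EIF1 and EIF1B, nearly identical proteins of start codon choice, differed in total RNA. EIF1 was at 346, 379 and 327 normalized CPM in shCtrl total RNA and at 260.3, 265 and 251 in shPRRC2B total RNA. Polysome RNA of EIF1 was at 3489.6, 4481 and 5075 in shCtrl cells and at 3068, 2759 and 4482 in shPRRC2B cells. Total RNA of EIF1 was lower in every shPRRC2B library, but the change of -0.44 had an edgeR adjusted p of 0.0646, and the polysome libraries overlapped.

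EIF1B was at 47.1, 51.7 and 48.0 normalized CPM in shCtrl total RNA and at 20.0, 23.1 and 18.8 in shPRRC2B total RNA. Polysome RNA of EIF1B was at 352, 312 and 308 in shCtrl cells and at 171, 124 and 193 in shPRRC2B cells. Both fractions were lower in every shPRRC2B library by a like factor. Total RNA of EIF1B fell by 1.24 on the log2 scale (SE 0.15, edgeR adjusted p = 1.01e-05), polysome RNA fell by 0.99 (SE 0.15), and the TE change was 0.25 (edgeR adjusted p = 0.399). It was the only member whose total RNA fell past the thresholds. Of eIF1A, which works beside eIF1, EIF1AX had a TE change of -0.51 (edgeR adjusted p = 0.174).

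EIF1AD, a protein with an eIF1A-like domain, was at 21.4, 22.7 and 19.8 normalized CPM in shCtrl total RNA and at 30.5, 33.0 and 30.7 in shPRRC2B total RNA. Polysome RNA of EIF1AD was at 20.1, 22.4 and 23.0 in shCtrl cells and at 23.5, 21.6 and 13.8 in shPRRC2B cells. The lines separated in total RNA only. The TE change of EIF1AD was -0.71 (SE 0.24, edgeR adjusted p = 0.0337), and it was lost under total count scaling and without any 1 of 7 libraries.

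EIF5, which makes eIF2 hydrolyse its GTP, had a TE change of -0.71 with an SE of 0.29 and was not called (edgeR adjusted p = 0.0840), although it was called without the first shPRRC2B polysome library, at -1.12, and was at -0.31 with the length trend removed. EIF6, which keeps large ribosomal subunits apart from small ones, had a TE change of 0.54 (edgeR adjusted p = 0.0663) that passed the thresholds when TMM was computed within each fraction (0.60) and without the second shCtrl polysome library (0.63), and that was -0.01 (edgeR adjusted p = 0.984) with the length trend removed.

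EIF5A, the factor that carries the amino acid hypusine, and its paralog EIF5A2 were called in no comparison between the lines with the main settings. EIF5A was at 424, 513 and 433 normalized CPM in shCtrl total RNA and at 648, 616 and 523 in shPRRC2B total RNA. Polysome RNA of EIF5A was at 1096, 1405 and 1034 in shCtrl cells and at 1385, 1229 and 1094 in shPRRC2B cells. Total RNA was higher in every shPRRC2B library and polysome RNA overlapped, with a TE change of -0.31 (SE 0.21). With the length trend removed the TE change of EIF5A was -0.81 and called. EIF5A2 was at 5.36, 5.59 and 7.81 in shCtrl total RNA and at 5.93, 6.26 and 6.34 in shPRRC2B total RNA. Polysome RNA of EIF5A2 was at 14.4, 13.5 and 13.8 in shCtrl cells and at 12.7, 8.02 and 13.4 in shPRRC2B cells. The polysome libraries of EIF5A2 separated only narrowly, and its TE change was -0.28 (SE 0.30).

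None of the 4 eEF1 genes tested was called for a TE change, where 16.4% of all genes were TE-down and 10.7% TE-up. EEF1A1 was at 5087, 5292 and 4858 normalized CPM in shCtrl total RNA and at 5154, 5383 and 4750.1 in shPRRC2B total RNA. Polysome RNA of EEF1A1 was at 16491, 16681 and 22392 in shCtrl cells and at 11828, 20936 and 18547 in shPRRC2B cells. This most abundant member overlapped in both fractions, with a TE change of -0.12 (SE 0.27). EEF1B2, the catalytic eEF1B subunit, was at 279, 294 and 269 in shCtrl total RNA and at 210.1, 210.1 and 204 in shPRRC2B total RNA. Polysome RNA of EEF1B2 was at 1594, 2196 and 2601 in shCtrl cells and at 1560.0, 1728 and 1679.8 in shPRRC2B cells. Total RNA was lower in every shPRRC2B library, at -0.43 (edgeR adjusted p = 0.0365), and its TE change was 0.07 (SE 0.22).

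EEF1E1, a multisynthetase complex protein related to the eEF1B subunits, had a TE change of 0.56 (edgeR adjusted p = 0.0602), and it was called with TMM within each fraction (0.63). With the length trend removed it was 0.01 (edgeR adjusted p = 0.989). EEF1D was at 1.25, 3.10 and 3.59 normalized CPM in shCtrl total RNA and at 3.92, 2.90 and 21.6 in shPRRC2B total RNA. Polysome RNA of EEF1D was at 4.59, 1.30 and 20.3 in shCtrl cells and at 6.53, 5.35 and 0.666 in shPRRC2B cells. Single libraries of EEF1D stood far from their group, and its TE change of -2.90 had an SE of 1.18 and an edgeR adjusted p of 0.0771. Of the 7 classical TOP mRNAs among the members (EEF1A1, EEF1B2, EEF1D, EEF1G, EIF3E, EIF3F and EIF3H), 6 were tested. Of these 1 was TE-down (EIF3E, 16.7%) and none TE-up, against 16.4% and 10.7% of all genes.

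Of the 4 release and recycling genes 3 were TE-down, against 16.4% of all genes and 25.9% of those averaging 10 CPM or more. GSPT1, the GTPase eRF3a that drives peptide release with eRF1, was at 192, 184 and 198 normalized CPM in shCtrl total RNA and at 280.3, 286 and 282 in shPRRC2B total RNA. Polysome RNA of GSPT1 was at 92.3, 85.7 and 94.2 in shCtrl cells and at 63.5, 57.0 and 55.8 in shPRRC2B cells. The replicates were tight and the lines apart in opposite directions in the 2 fractions. Total RNA of GSPT1 rose by 0.56 (SE 0.11, edgeR adjusted p = 6.64e-04), polysome RNA fell by 0.63 (SE 0.11, edgeR adjusted p = 2.11e-04), and TE fell by 1.19 on the log2 scale (SE 0.15, edgeR adjusted p = 5.62e-05). The TE change was -0.64, still called, with the length trend removed, and under total count scaling total RNA of GSPT1 was at 0.49, just under the threshold.

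GSPT2, the paralog eRF3b, which comes from an intronless gene copy, was at 9.21, 7.08 and 8.08 normalized CPM in shCtrl total RNA and at 7.61, 7.37 and 6.21 in shPRRC2B total RNA. Polysome RNA of GSPT2 was at 9.46, 6.08 and 5.88 in shCtrl cells and at 6.45, 4.11 and 5.23 in shPRRC2B cells. The lines overlapped in both fractions, and the TE change of GSPT2 was -0.24 (SE 0.34, edgeR adjusted p = 0.637), measured on 1449 counts over the 12 libraries against 38019 for GSPT1.

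ABCE1, the iron-sulfur ATPase that splits ribosomes after termination, was at 96.8, 88.8 and 106 normalized CPM in shCtrl total RNA and at 153, 168 and 160.4 in shPRRC2B total RNA. Polysome RNA of ABCE1 was at 59.1, 61.2 and 68.3 in shCtrl cells and at 55.5, 40.6 and 22.1 in shPRRC2B cells. As for EIF5B, total RNA was higher and polysome RNA lower in every shPRRC2B library, and the third polysome library was the lowest. Total RNA of ABCE1 rose by 0.73 (SE 0.20, edgeR adjusted p = 0.0111), polysome RNA fell by 0.67 (SE 0.21, edgeR adjusted p = 0.0165), and TE fell by 1.40 on the log2 scale (SE 0.30, edgeR adjusted p = 0.00229). Without the third shPRRC2B polysome library the TE change of ABCE1 was -1.14. ETF1, the stop codon reader eRF1, was TE-down at -0.70 (SE 0.18, edgeR adjusted p = 0.00728) with total RNA up by 0.58 and polysome RNA at -0.12.

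**Figure D3:**
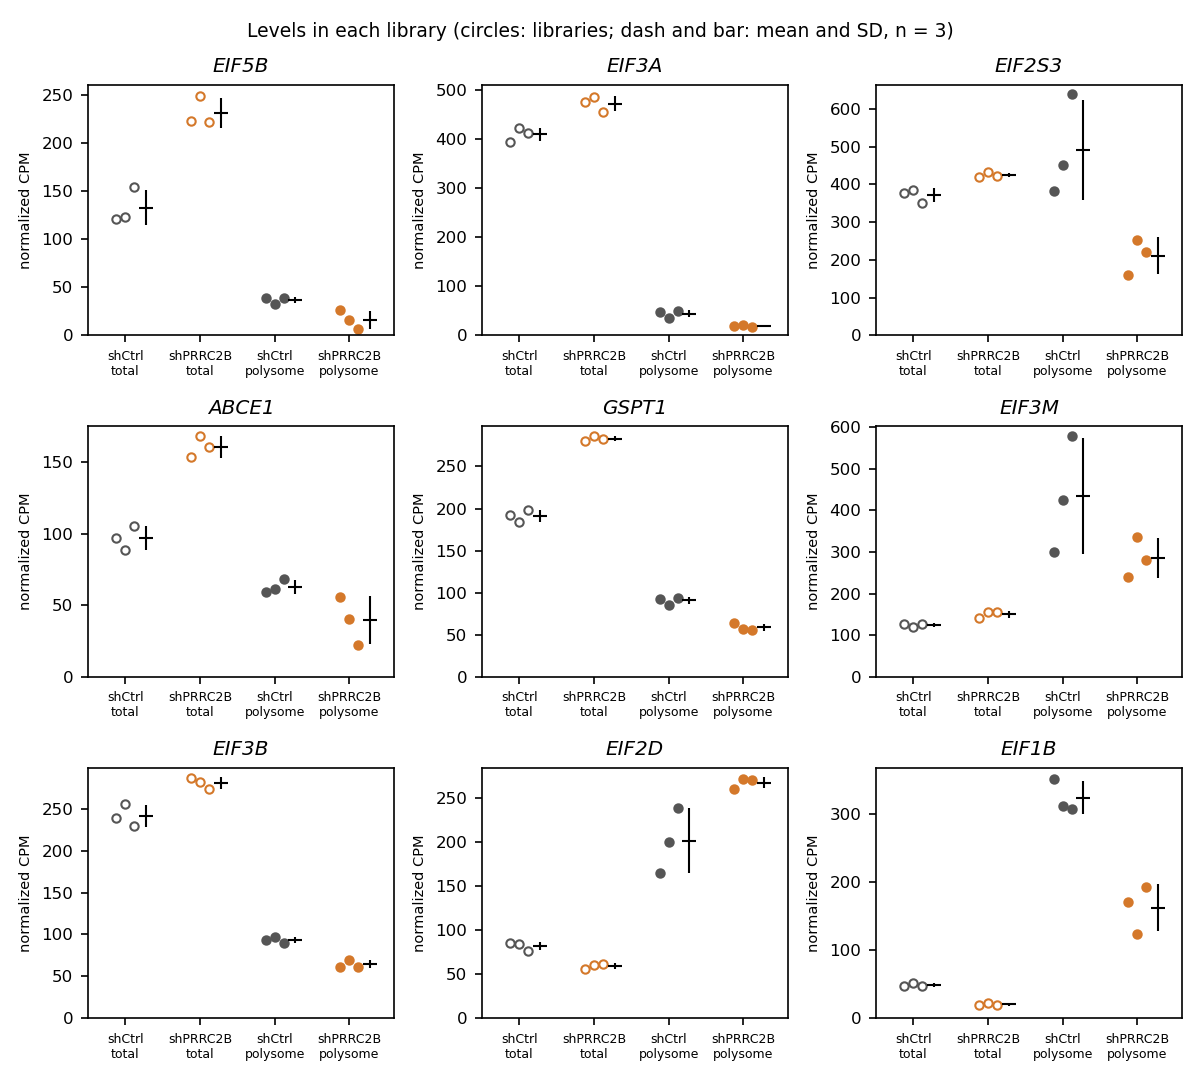
Normalized CPM (vertical axis, from 0) of 9 members in each library, with open circles for total RNA, filled circles for polysome RNA, grey for shCtrl, orange for shPRRC2B, and the mean and SD of the 3 libraries beside each group. In EIF5B, ABCE1 and GSPT1 total RNA lies higher and polysome RNA lower in every shPRRC2B library, EIF2D has the reverse, and EIF1B is lower in both fractions.

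In each fraction taken alone most members were not called, and 3 (EIF5B, GSPT1 and ABCE1) were called in opposite directions in the 2 fractions. In total RNA 8 members rose (EIF1AD, EIF2S1, EIF2B4, EIF5, EIF5B, ETF1, GSPT1 and ABCE1) and 1 fell (EIF1B), against 14.9% and 14.1% of all genes. With libraries scaled by total counts, 3 rose and 4 fell, against 11.8% and 16.4%. The number that rose was 4 or 5 without any 1 shPRRC2B total library, the first or second shCtrl total library, or the second shPRRC2B polysome library. In polysome RNA 1 member rose (EIF2B5) and 13 fell (EIF1B, EIF2S3, EIF2A, EIF3A, EIF3B, EIF3D, EIF3E, EIF3I, EIF3M, EIF5B, GSPT1, ABCE1 and MCTS1), against 18.4% and 21.4% of all genes. The libraries of the lines did not overlap in total RNA for 22 members that were higher and 8 that were lower in shPRRC2B cells, against 34.1% and 28.8% of all genes. In polysome RNA they did not overlap for 2 higher and 13 lower members, against 21.6% and 21.5%.

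The 15 TE-down members came from different fractions. For 7 (EIF2S3, EIF2A, EIF3A, EIF3B, EIF3E, EIF3I and EIF3M) polysome RNA alone passed its thresholds, and for 3 (EIF1AD, EIF2S1 and ETF1) total RNA alone did. For EIF5B, GSPT1 and ABCE1 both did, and for EIF2S2 and EIF3J neither did. The TE change is the polysome change minus the total RNA change, so a rise in total RNA that polysome RNA does not follow is counted as a lower TE.

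**Figure D4:**
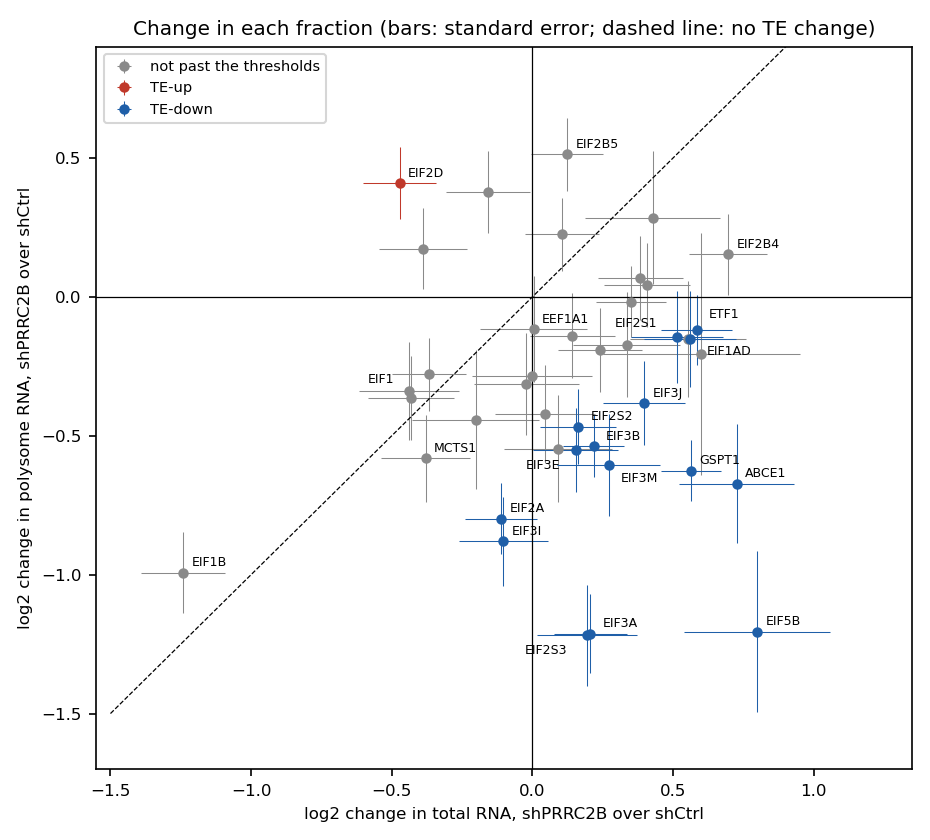
The log2 change in total RNA (horizontal axis) and in polysome RNA (vertical axis), shPRRC2B over shCtrl, of 41 members (EEF1D, at 1.86 and -1.04, lies outside the range), with standard errors as bars and a dashed line where TE does not change. The TE-down members (blue) lie below the line, with EIF5B at 0.80 and -1.21, while EIF1B lies near the line at -1.24 and -0.99.

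Transcript length went with both the polysome-to-total ratio and the TE change. Over the 42 members the Spearman correlation of canonical transcript length was -0.43 with the log2 ratio in shCtrl cells and -0.45 with the TE change. Over the 15762 genes tested that had a length it was -0.56 and -0.41. All of these points come from the same 12 libraries. The 15 TE-down members had a median length of 3682 nt and the 26 members not called for TE 2479.5 nt. None of the 7 members of 1300 nt or less was TE-down, and 4 of the 8 of 5000 nt or more were (EIF3M, EIF5B, EIF3A and GSPT1), both limits chosen after the values were seen. Over all genes tested, 2.06% of the 2524 of 1300 nt or less and 39.8% of the 3865 of 5000 nt or more were TE-down. With the trend on length removed from each library 17 members were TE-down and 1 TE-up, against 14.6% and 8.27% of the 15762 genes. EIF2S1, EIF2A and EIF3M were then no longer called, and EIF2B3, EIF2B4, EIF3D, EIF3G and EIF5A were.

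**Figure D5:**
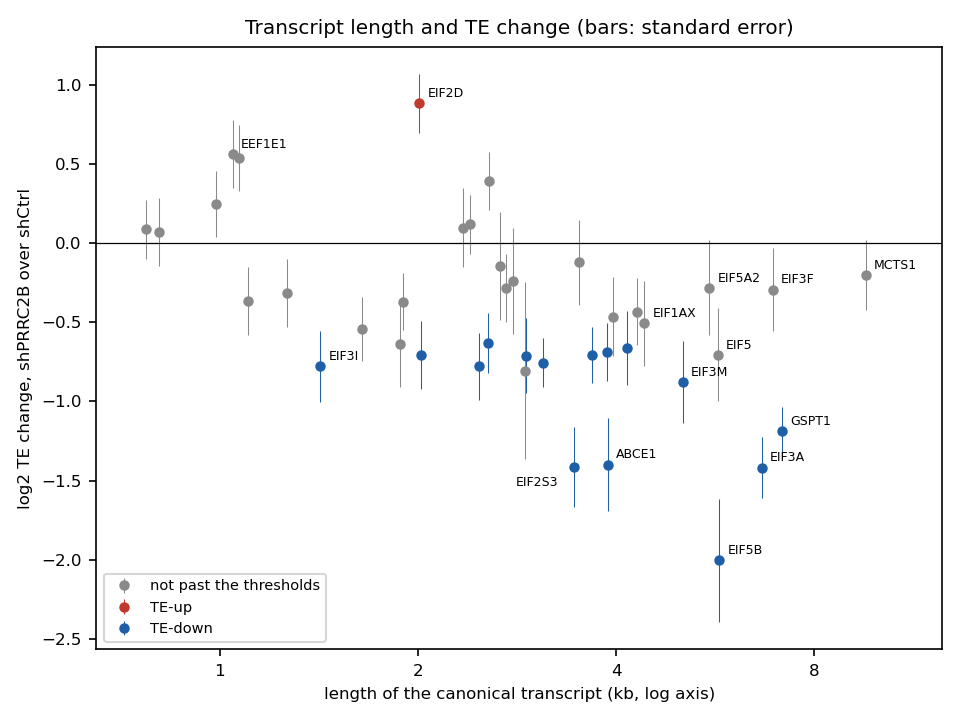
Length of the canonical transcript in kb (horizontal log axis) and log2 TE change (vertical axis, bars are standard errors) of 41 members without EEF1D, with TE-down members in blue and TE-up in red. No mRNA of 1300 nt or less, such as that of EEF1E1, is TE-down, and EIF5B, EIF3A and GSPT1 are long and low, while the long mRNAs of MCTS1, EIF3F and EIF5A2 are past no threshold.

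The other translation factor genes, a list of 50 symbols with the eIF4 proteins, poly(A)-binding proteins, eIF2 kinases and mitochondrial factors, extend the pathway. Of 48 tested, 17 were TE-down (35.4%) and 2 TE-up, with a median TE change of -0.30. Over all genes 16.4% were TE-down and 10.7% TE-up, with a median of -0.03. Among genes averaging 10 CPM or more it was 25.9% and 12.4%, with a median of -0.17. Of the 39 tested cytosolic genes 13 were TE-down (33.3%), and of the 9 mitochondrial ones 4 were (44.4%). The largest decreases were those of EIF2AK2, the double-stranded RNA kinase of eIF2 (-1.75, edgeR adjusted p = 0.00216), PABPC1, the main cytoplasmic poly(A)-binding protein (-1.60, edgeR adjusted p = 0.00248), and EIF4G1, the scaffold of cap-dependent initiation (-1.35, edgeR adjusted p = 1.73e-04). GFM1, a mitochondrial elongation factor, followed at -1.28, and EEF1A2, the muscle and neuron form of eEF1A, at -1.26. The 2 TE-up genes were TRMT112, a partner of methyltransferases including that of eRF1 (0.73, edgeR adjusted p = 0.0296), and EIF4E2, a cap-binding repressor (0.65, edgeR adjusted p = 0.0393), and without any 1 of 8 libraries neither was called.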

How the data were processed

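The authors deposited a table of raw counts, with a row for each gene name and a column for each library, not normalized. By the methods and labels, reads were demultiplexed with bcl2fastq 2.19.0, trimmed with Trimmomatic 0.36, mapped to GRCh38 with HISAT2 (2.1.0 in the labels) and counted with featureCounts of Subread 2.0.1 on GENCODE 38 gene names. The options stated count no multi-mapping or multi-gene pairs and name no strand. RNA was poly(A)-enriched, and polysome RNA was gradient fractions 6 to 10 combined. Every count was a whole number, and 0 value columns belonged to no library.

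These counts were fitted with edgeR 4.0.16 in R 4.3.3: filterByExpr (minimum count 10, 4 groups of line and fraction), TMM over 12 libraries, glmQLFit and glmQLFTest without a block, Benjamini-Hochberg adjustment. The same fit gave the difference of log2 polysome-to-total ratios between the lines (the TE change), the ratio in each line and the difference between lines within a fraction. SE was the log2 change divided by the root of F. Errors are SEs of the fit or the spread of 3 libraries, and of the members tested EEF1D, GSPT2 and EIF5A2 had the fewest counts. Lengths, positions and overlaps are of GENCODE 44, and starts of RefSeq on GRCh38.p14.

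The members, the gene lists and the tests were chosen with earlier results of these data known. Values in every library are given for the 10 largest TE decreases and TE increases called, 3 paralog pairs (EIF1 and EIF1B, EIF5A and EIF5A2, GSPT1 and GSPT2), PRRC2B-bound members and classical TOP members. Of other factors, at most 5 called per direction were named. The pipeline was tested on simulated data. Alternatives were DESeq2 1.42.0, RLE, total count and within-fraction scaling, counts of at least 1 or of 10 in every library, a replicate or culture block, a lowess trend on transcript length (span 0.3) removed with and without the block, no minimum log2 change, counts of copies added, only the libraries compared, and each library left out.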

Additional observations from a re-analysis of the deposited data

Results flagged for a closer look

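EIF5B, GSPT1 and ABCE1 had total RNA and polysome RNA past the thresholds in opposite directions, so the change between the lines differed between the fractions by the interaction term that defines the TE change. The log2 difference was -2.00 for EIF5B, -1.19 for GSPT1 and -1.40 for ABCE1, and it was called in every alternative and without any 1 library. Under total count scaling the total RNA change of EIF5B (0.72) and of GSPT1 (0.49) was not called, so for these genes the opposite calls depend on the scaling. No group had more than 3 libraries, so single libraries could not be screened by the gap to their neighbours.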

How the results depend on the processing

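Of the 16 members called for TE, 10 kept their call under every alternative and without any 1 library (EIF2S3, EIF2D, EIF3A, EIF3B, EIF3I, EIF3J, EIF5B, ETF1, GSPT1 and ABCE1), and no TE change of a called member reversed. Another 13 members were called only under some alternative or without some library. TE-down members numbered 13 to 19 over the alternatives, against 15. Leaving out 1 library gave 12 to 22, with 22 without the first shCtrl polysome library. For no fit that leaves out 1 library is the share of all genes given, so such counts describe the stability of calls only. TE-up members numbered 3 with TMM within each fraction and with 10 counts in every library, against 1, and 1 to 2 leaving out 1 library.

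In total RNA 8 members were higher, but 3 with total count scaling, and 4 to 7 leaving out 1 library, with 4 without the first or second shCtrl or the second shPRRC2B total library, and 5 without replicate 1 or 3 of the shPRRC2B total libraries or the second shPRRC2B polysome library. The 1 lower member became 4 with total count scaling or no minimum log2 change, 2 with within-fraction TMM, at least 1 count, the length trend removed with or without the replicate block, or only the libraries compared, and 1 to 2 leaving out 1 library (2 without shCtrl total replicate 3 or any 1 polysome library). In polysome RNA the 1 higher member, EIF2B5, was 0 with DESeq2, RLE or total count scaling, at least 1 count, or the length trend removed with or without the block, 3 with no minimum log2 change, and 0 to 1 leaving out 1 library. It was 0 without replicate 2 or 3 of the shCtrl polysome libraries or any 1 shPRRC2B polysome library. Lower members in polysome RNA numbered 13 to 18 leaving out 1 library.

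Polysome-to-total ratios depended on scaling. In shCtrl cells, members higher and lower numbered 15 and 14 with total count scaling and 14 and 14 with within-fraction TMM, against 27 and 6. In shPRRC2B cells they numbered 14 and 19 under both, against 23 and 11. With total count scaling 17.7% of all genes were higher and 58.8% lower in shCtrl cells, and 23.6% and 56.2% in shPRRC2B cells. With within-fraction TMM it was 17.6% and 58.8% in shCtrl cells, and 23.6% and 56.1% in shPRRC2B cells. Leaving out 1 library gave 26 to 28 and 6 to 7, and 22 to 23 and 11 to 13. Other translation factors that were TE-up numbered 4 with at least 1 count, against 2, and 0 to 3 leaving out 1 library, with 0 without 8 of the 12 libraries. Those TE-down numbered 16 to 20.

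Replicate numbers were shared by the groups, and the labels do not say whether samples of the same number came from the same culture. Over 18 same-numbered pairs the deviations correlated at -0.17 to 0.13. With 3 libraries in each group this cannot decide whether they were paired. With the replicate block 14 members were TE-down and 1 TE-up, against 15.5% and 9.97% of all genes. EIF2S1 was then not called (-0.66, adjusted p = 0.0608), and counts with the block lay within 1.5 times the main ones. The cause of these differences was not tested.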
